A study of Mus musculus with 4 samples.

Results

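The genes described here are 9 mouse genes of epithelial adhesion and cell junctions, Epcam, Cdh1, Cdh17, Dsp, Ctnna1, Ctnnd1, Tjp1, Ocln and Cldn7, out of 21900 protein-coding genes in the gene table. They were chosen by name, and all peaks that touch the span of a gene by at least 1 base were taken for it. The measurement is CLIP-seq of MSI2, a Musashi RNA-binding protein: RNA was joined to protein by ultraviolet light (2 pulses at 265 nm, 400 mJ/cm2), MSI2 was precipitated, and the RNA in the complex near 50 kD was sequenced. Wild-type mice (WT) gave 2 of the 4 libraries, made from intestinal crypts per the labels' protocols. The other 2 came from TRE-Msi2 mice, whose Msi2 transgene is switched on by doxycycline, made from the whole intestinal epithelium after 24 hours of doxycycline. All were on C57BL6. The promoter or cell type that drives the transactivator of the transgene, and whether any library pools animals, are not stated in the labels. Genotype, tissue fraction and, as far as the labels record it, doxycycline differ together between the groups and cannot be told apart.

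Epithelial sheets are held together by several structures. In adherens junctions, cadherins of neighbouring cells bind each other and are coupled to actin through catenins. Desmosomes couple cadherins to keratin filaments, and tight junctions, built from claudins, occludin and their scaffolds, seal the space between cells. In the gut the epithelium is renewed continuously from the crypts, and these contacts have to be kept while cells migrate and are shed. Musashi proteins bind messenger RNA and act on its translation and stability.

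The authors deposited 1 peak list per genotype, each pooled from 2 libraries, with 12061 WT peaks and 16939 TRE-Msi2 peaks on mm10. The list values therefore carry no spread between replicates, and no difference between genotypes was tested. Each peak has the authors' score. Nearly all scores of peaks that are 1 bin of 200 nt wide are whole numbers (99.1% in WT and 96.7% in TRE-Msi2), as read counts would be, and intervals are given for these alone. Wider peaks join several bins, and how their score was made is not stated. A mean of whole counts over the bins gives the score of 57.5% of joined WT peaks and 42.1% of joined TRE-Msi2 peaks (within 0.001 per bin), so a score of a joined peak is used for its rank, or beside the score at the same positions in the other list, and not as a count. Single-bin peaks started at a score of 15 in WT (exact Poisson 95% interval 8.40 to 24.7) and 20 in TRE-Msi2 (12.2 to 30.9), and these intervals cover counting error only. Library depth is unknown, so scores are given within a list, with the percentile of the score among all peaks of that list. No library of RNA amount was used, so a peak can reflect an abundant transcript as well as binding. Marker genes were used to check the labelled tissue. In WT 7 of 7 enterocyte markers and 4 of 7 general epithelial markers held a peak, while 0 of 8 stromal, 0 of 4 endothelial and 1 of 7 immune markers did. In TRE-Msi2 the counts were 7 of 7, 5 of 7, 0 of 8, 0 of 4 and 1 of 7. The enterocyte markers held high-scoring peaks also in the WT list, which is labelled as crypts. Their highest peaks stood at a median percentile of 99.1 in WT and 99.5 in TRE-Msi2. The set held no markers of crypt cells and RNA amount was not measured, so these peaks cannot judge the label. The degree to which crypts and whole epithelium differed here was not tested.

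All 9 genes held peaks in both lists. Of all protein-coding genes, 20.3% held a WT peak, 24.9% a TRE-Msi2 peak and 19.1% both. The genes were chosen when peaks in many of them were already known, so the count of 9 is a description. Together they held 36 WT peaks and 57 TRE-Msi2 peaks. All 93 lay on the strand of the gene's transcript where a promoter table gave it (6 genes) and on a single strand in the other 3 (Cdh1, Cdh17 and Ctnna1), and 0 touched the span of another gene.

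**Figure D1:**
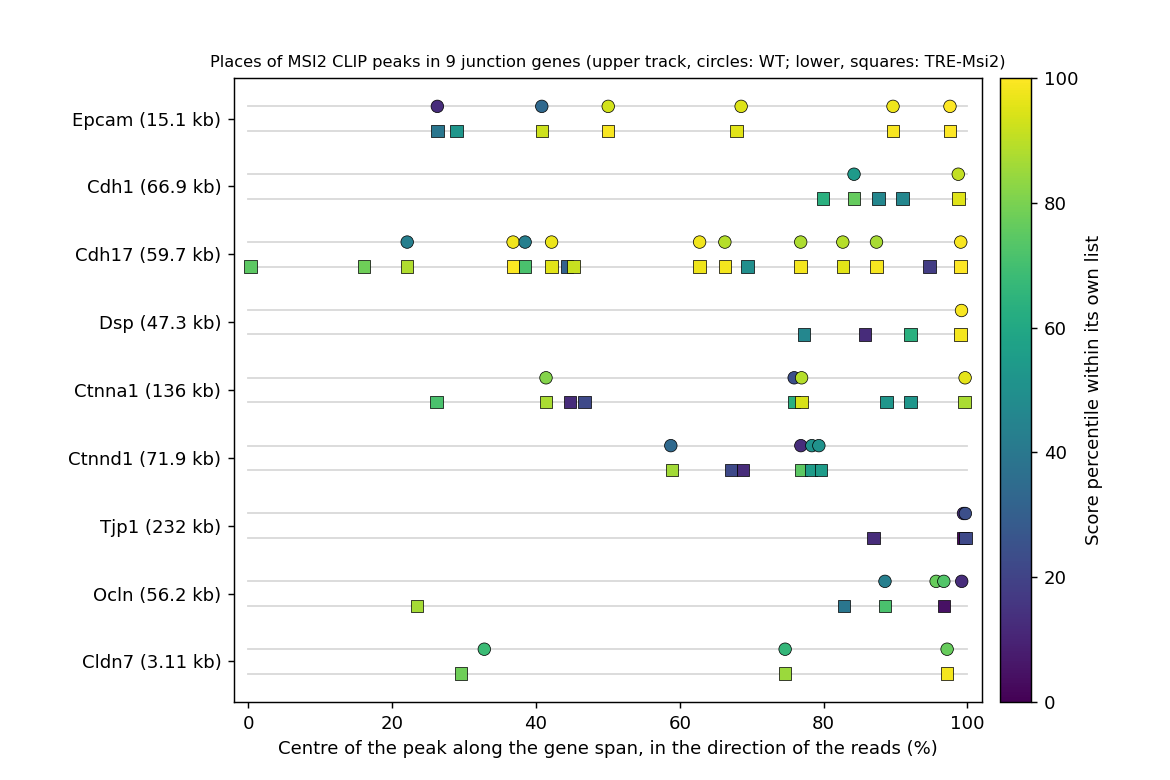
Places of all peaks in the 9 genes, as the centre of each peak in percent of the gene span (x axis), read in the direction of the reads; circles are the 36 WT peaks, squares the 57 TRE-Msi2 peaks, and colour is the score percentile within the list. Marker size does not show peak width. Cdh17 and Epcam hold peaks through much of the span, whereas those of Cdh1, Dsp, Tjp1 and, in WT, Ocln stand toward the end.

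Epcam encodes a homophilic adhesion protein of epithelial cells that associates with claudin-7 at the membrane. The gene covers 15.1 kb of chromosome 17 (87635979 to 87651127). Its 6 WT peaks, in the direction of transcription, had scores of 15, 17, 33, 35, 43 and 81.6. The scores thus stood in rising order from the first peak to the last, and the last peak, 1000 nt wide (87650261 to 87651260), reached past the annotated end of the gene. That peak ranked 30 of 12061 WT peaks by score, and 21 of the 4449 protein-coding genes with a WT peak had a higher top score. In TRE-Msi2 the 7 peaks scored 23, 25, 40, 66, 45, 63 and 101.5, and the last, at the same positions as in WT, ranked 19 of 16939. The second of them, 25 (exact Poisson 95% interval 16.2 to 36.9), had no WT counterpart; the other 6 did. Epcam was the gene with the highest top score of the 9 in both lists.

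Cdh17 encodes LI-cadherin, an intestinal cadherin that lacks the catenin-binding tail of E-cadherin. It covers 59.7 kb of chromosome 4 (11758157 to 11817905) and held the most peaks of the 9, 10 in WT and 16 in TRE-Msi2. Of all protein-coding genes, 20 held more WT peaks and 10 held more TRE-Msi2 peaks. The WT scores along the gene were 18, 46, 18, 40.3, 46, 29, 28.5, 29, 28 and 56.6. The highest was the last peak, 1000 nt wide and ending 0.052 kb before the end of the gene, at percentile 99.1. Peaks as far as 37.7 kb and 22.1 kb from the end, each with a score of 46, stood at percentile 98.0, so high scores were not limited to the end of this gene.

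All 10 WT peaks of Cdh17 were found again in TRE-Msi2, each with the same start and end, where they scored 36, 72, 29, 45.3, 51, 57, 54.5, 45, 58 and 85.5. The other 6 TRE-Msi2 peaks had no WT counterpart and scored 30, 31, 22, 39, 24.5 and 20.5. The first of these 6 began 97 nt after the start of the gene, and the last lay 2.85 kb before its end. The score of 39 (27.7 to 53.3), at positions 11785054 to 11785253, was the highest TRE-Msi2 score without a WT counterpart in any of the 9 genes, at percentile 91.6.

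**Figure D2:**
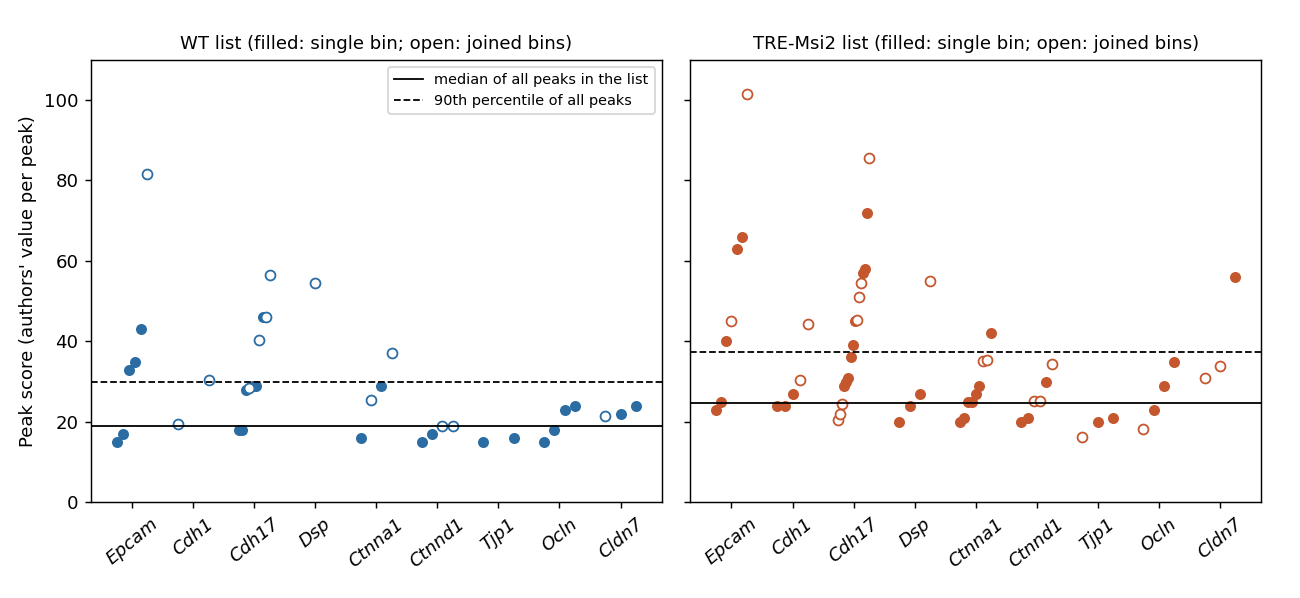
The authors' score of every peak (y axis) for each of the 9 genes (x axis), WT list on the left and TRE-Msi2 list on the right; filled points are single-bin peaks, open points joined bins, lines the median and the 90th percentile of all peaks of that list. Epcam, Cdh17 and Dsp hold the highest WT scores (81.6, 56.6 and 54.6), and Tjp1 stays under the list median in both panels.

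In the adherens junction, Cdh1 encodes E-cadherin, the main classical cadherin of epithelia. It covers 66.9 kb of chromosome 8 (106603350 to 106670247). Both WT peaks were joined bins: one of 400 nt scoring 19.5, 10.3 kb before the end, and one of 1800 nt scoring 30.3 that ran over the end (106668501 to 106670300), at percentile 90.8. The 1800-nt peak is the widest of any of the 93. Both were found at the same positions in TRE-Msi2, scoring 30.5 and 44.3, the latter at percentile 95.1. A further 3 single-bin TRE-Msi2 peaks, scoring 27, 24 and 24, lay between 5.95 kb and 13.3 kb from the end and had no WT counterpart. In both lists, all peaks of Cdh1 were therefore centred at or beyond 79.9% of its span.

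Ctnna1 encodes alpha-catenin, which couples the cadherin complex to actin. It covers 136 kb of chromosome 18 (35118902 to 35254776). Its 4 WT peaks scored 25.5, 16, 29 and 37, with the highest, of 800 nt, ending 0.03 kb before the end of the gene. In TRE-Msi2 it held 9 peaks, scoring 29, 35.5, 20, 21, 27, 42, 25, 25 and 35.1 along the gene. The top peak was here not the last but a single-bin peak 31.2 kb before the end, with 42 (exact Poisson 95% interval 30.3 to 56.8), at a site that scored 29 in WT (19.4 to 41.6). The end peak is 1000 nt wide in TRE-Msi2 and 800 nt in WT. All 4 WT sites had a TRE-Msi2 counterpart, and the 5 TRE-Msi2 peaks without one scored 20 to 29.

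Ctnnd1 encodes p120-catenin, which binds the cadherin tail and holds cadherins at the cell surface. The gene covers 71.9 kb of chromosome 2 (84587096 to 84658977). The 4 WT peaks scored 17, 15, 19 and 19, none of them above percentile 50.7. The 6 TRE-Msi2 peaks scored 34.5, 21, 20, 30, 25.3 and 25.3, of which the first, 400 nt wide, stood at percentile 85.9. The peak nearest the annotated end lay 14.5 kb before it in WT and 14.1 kb before it in TRE-Msi2. Ctnnd1 is the only one of the 9 genes with 0 peaks in the last 2 kb in either list. The span covers all transcript models of the table, which gives neither exons nor the ends of single transcripts, so the distance to the end of the expressed transcript is not known.

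Dsp encodes desmoplakin, which ties the desmosome to keratin filaments. It covers 47.3 kb of chromosome 13 (38151294 to 38198577). In WT it held 1 peak, 800 nt wide at the end of the gene (38197732 to 38198531), with a score of 54.6, at percentile 99.0. The TRE-Msi2 list held that peak with the same start and end, scoring 55 at percentile 98.2. Its other 3 TRE-Msi2 peaks were single bins scoring 24, 20 and 27, from 3.65 kb to 10.6 kb before the end, and had no WT counterpart. Dsp thus combined the fewest WT peaks with one of the highest WT scores.

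In the tight junction, Tjp1 encodes ZO-1, the scaffold that links claudins and occludin to actin. It has the longest span of the 9, 232 kb of chromosome 7 (65296165 to 65527850), and the lowest top scores. Its 2 WT peaks scored 15 and 16, at percentiles 12.5 and 24.0, and lay 1.15 kb and 0.55 kb from the end. Both had a TRE-Msi2 counterpart, scoring 16.3 over 400 nt and 21. The third TRE-Msi2 peak, at 20, the lowest single-bin score of that list, lay 30.1 kb from the end without a WT counterpart. All of its scores are thus near the threshold of the lists, and 3705 of the 4449 protein-coding genes with a WT peak had a higher top score.

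Ocln encodes occludin, a membrane-spanning tight junction protein. It covers 56.2 kb of chromosome 13 (100496504 to 100552718). The WT peaks, 4 single bins, scored 18, 24, 23 and 15 along the gene, the first of them 6.34 kb before its end. The last of them, at 15 (8.40 to 24.7), was the one WT peak of the 36 without a TRE-Msi2 counterpart. In TRE-Msi2 the peaks scored 35, 23, 29 and 18.3. A single TRE-Msi2 peak of 1400 nt (100497646 to 100499045) spans the positions of the WT peaks scoring 24 and 23, and its score stands at percentile 4.31. The highest, 35 (24.4 to 48.7), lay 42.9 kb before the end, far from every WT peak of the gene and without a counterpart.

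Cldn7 encodes claudin-7, a claudin that is abundant in intestinal epithelium. It is the shortest of the 9, 3.11 kb of chromosome 11 (69964779 to 69967886), and held 3 peaks in each list, all with counterparts. The WT scores along the gene were 22, 21.5 and 24, and those in TRE-Msi2 were 31, 34 and 56. The last site (69967699 to 69967898) stood at percentile 76.7 in WT, with a score of 24 (15.4 to 35.7), and at percentile 98.3 in TRE-Msi2, with 56 (42.3 to 72.7). Peaks covered 25.4% of its span in WT and 31.8% in TRE-Msi2, where in the other 8 genes the covered share was between 0.173% (Tjp1, WT) and 15.0% (Epcam, TRE-Msi2).

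Against all peaks of the lists, those of the 9 genes ranked high by score. Their median percentile was 76.7 in WT and 74.7 in TRE-Msi2, where the middle of a list lies near 50. In the upper 10% of scores lay 11 of 36 WT peaks (30.6%, exact Clopper-Pearson 95% interval 16.3% to 48.1%) and 18 of the 57 peaks of TRE-Msi2 (31.6%, 19.9% to 45.2%), against 10.2% and 9.99% of all peaks. Cdh17 and Epcam supplied most of these, so the high share is not a trait of all 9 genes. By gene, the median percentile ran from 18.2 (Tjp1) to 99.0 (Dsp, 1 peak) in WT. In TRE-Msi2 it ran from 12.2 (Tjp1) to 95.4 (Epcam). The medians of Ctnnd1 were 42.3 in WT and 54.9 in TRE-Msi2. Without Cdh17, a calculation chosen after seeing the data, the median percentiles were 67.2 and 63.3. The shares in the upper 10% were then 26.9% (11.6% to 47.8%) and 22.0% (10.6% to 37.6%), which still include the peaks of Epcam. Peaks of a gene share a transcript and its abundance, so these intervals, which treat peaks as independent, are too narrow. In width the peaks were like the rest: 63.9% in WT and 63.2% in TRE-Msi2 were single bins, against 63.2% and 58.8% of all peaks.

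In 6 of the 8 genes with a span of at least 10 kb the highest WT peak lay in the last 2 kb: Epcam, Cdh1, Cdh17, Dsp, Ctnna1 and Tjp1. In TRE-Msi2 this held for the same genes except Ctnna1. Among all protein-coding genes of that length with a peak, the shares were 49.7% in WT and 44.2% in TRE-Msi2. Counted by peak, 10 of 33 WT peaks (30.3%, exact Clopper-Pearson 95% interval 15.6% to 48.7%) and 9 of 54 peaks in TRE-Msi2 (16.7%, 7.92% to 29.3%) did so, against 39.8% and 34.8% over all such genes. Without Cdh17, whose interior peaks are many, the shares were 39.1% (19.7% to 61.5%) and 21.1% (9.55% to 37.3%). The end of the genes therefore held the highest score in most members while most peaks lay elsewhere. Apart from that of Tjp1, these highest end peaks are joined peaks. How their score was made is not stated, and they are ranked here beside single-bin peaks.

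As in the lists as a whole, the TRE-Msi2 peaks of the 9 genes held most WT sites and further ones. Of the 36 WT peaks, 35 (97.2%, exact Clopper-Pearson 95% interval 85.5% to 99.9%) overlapped a TRE-Msi2 peak on the same strand, against 91.3% of all WT peaks. Of the 57 TRE-Msi2 peaks, 34 (59.6%, 45.8% to 72.4%) overlapped a WT peak, against 57.6% of all. The 23 without a WT counterpart fell in 8 genes, all but Cldn7. Their median score was 24, at percentile 46.4, against 38 and percentile 90.3 for the 34 with a counterpart. Over all TRE-Msi2 peaks the medians differed in the same direction, 23 (percentile 39.2) without and 27 (percentile 63.3) with a counterpart. Of the 23, 20 were single bins. In the last 2 kb of genes of at least 10 kb lay 0 of these 23, which allows a share of up to 13.0% by the limit of 3 counts (14.8% by the exact Clopper-Pearson interval), and 9 of 31 (29.0%) of those with a counterpart. Over all such genes the shares were 26.4% and 41.0%. The limits for the 23 treat peaks as independent, although 6 of them lie in Cdh17, so they are too narrow. The 23 peaks thus lay outside the last 2 kb and had a lower median score than those with a counterpart. Of the 23, 10 scored above the median of the whole TRE-Msi2 list. That list is longer and made from libraries of unknown depth. Whether depth, tissue fraction or MSI2 level goes with these additional peaks was not tested.

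For sites with the same start and end in both lists, the ratio of TRE-Msi2 to WT score was compared with that of all such sites, a comparison chosen after seeing the data. Over all 5770 identical sites the median ratio was 1.49, and over the 3796 single-bin ones it was 1.52 (5th to 95th percentile 1.04 to 2.13). Because depth is unknown, only the place of a ratio among these is read. Of the 36 WT peaks of the 9 genes 26 had such a site, 16 of them single bins. The exact 95% counting interval of the ratio held the median of 1.52 in all 16, and 13 of the 16 ratios were above it. Of the 10 joined sites 6 were below the median of 1.49, and over all 26 sites 17 were above it. The highest were 2.35 (1.30 to 4.43) in Epcam, 8.87 kb before the end, and 2.33 (1.42 to 3.94) at the last site of Cldn7. These stood at percentiles 98.2 and 98.0 of all identical sites. Among the joined sites, for which no counting interval can be given, the end peak of Dsp had the lowest ratio, 1.01, at percentile 7.05.

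The order of scores was broadly similar in both lists, though some sites shifted in place. Over the 26 identical sites Spearman's rho was 0.86 and Pearson's r 0.88, against 0.64 and 0.77 over the 5770. Of the 26 sites 10 lie in Cdh17, and sites of a gene share its transcript and libraries, so these values are descriptions. A correlation also depends on the range of scores, for which the 26 and the 5770 were not matched.

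**Figure D3:**
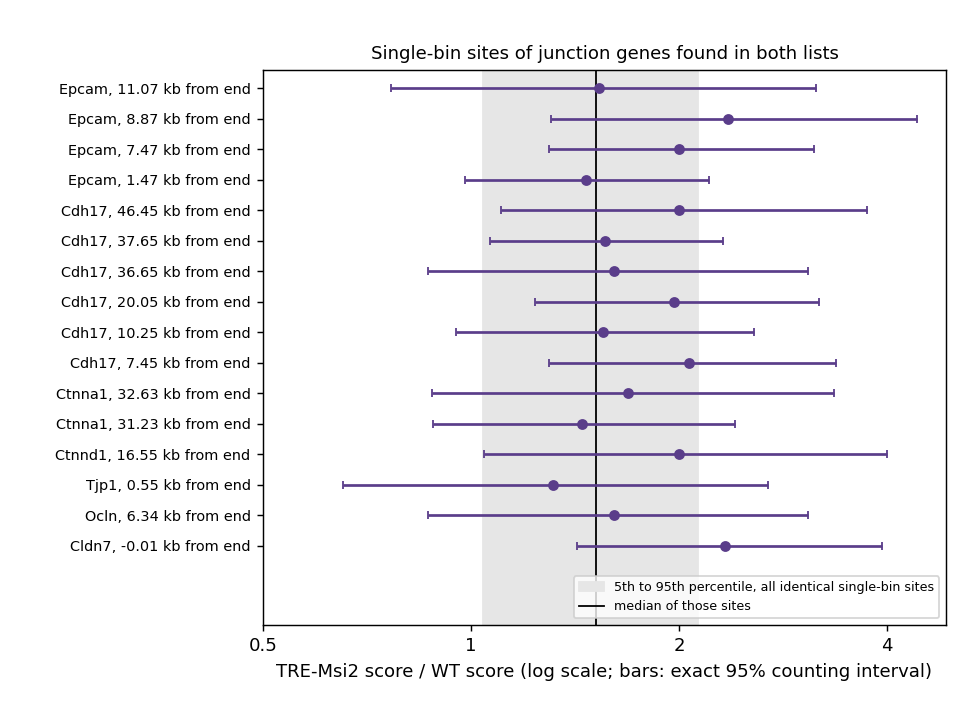
Ratio of TRE-Msi2 to WT score (x axis, log scale) at the 16 single-bin sites with the same start and end in both lists, each named by gene and distance from the gene end in kb (a negative distance lies past the end); bars are exact 95% counting intervals, the line is the median of all 3796 such sites (1.52) and the grey band their 5th to 95th percentile. All 16 intervals cross the line.

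A wider list of 66 adhesion and junction genes set the 9 beside the other parts of these structures. Of its 57 genes that are not among the 9, 23 (40.4%) held a WT peak and 28 (49.1%) a TRE-Msi2 peak, against 20.3% and 24.9% of all protein-coding genes. The 23 with a WT peak all held a TRE-Msi2 peak too. By the top score the first 5 of the 66 in WT were Epcam, Cdh17, Dsp, Cdhr5 (53.5), a protocadherin that joins the tips of microvilli, and Ctnnb1 (47.1), the gene of beta-catenin. In TRE-Msi2 they were Epcam, Cdh17, Ctnnb1 (64.3), Cldn7 and Dsp. The 9 genes hold 3 of the 5 places in WT and 4 of 5 in TRE-Msi2. The 9 and the wider list were chosen with earlier results of these data known, so these places and shares are descriptions.

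By role, 5 of 9 further adherens junction genes held peaks in both lists, among them Ctnnb1 with 5 WT and 8 TRE-Msi2 peaks. Of 8 further desmosome genes 3 did, namely Dsg2, Dsc2 and Perp, named after their values were seen. Dsc2, a desmosomal cadherin, held 5 WT and 11 TRE-Msi2 peaks. Of 22 further tight junction genes, 11 held a WT and 12 a TRE-Msi2 peak. Cell-cell adhesion outside the junctions, the role of Epcam and Cdh17, had 4 further genes. A WT peak was held by 2 of them and a TRE-Msi2 peak by 3. Among these, Ceacam1 held 7 peaks in each list, all of which also touched the span of another gene. The only peak of Vcl, an adherens junction gene, did so too in both lists. Such peaks cannot be assigned to 1 gene by overlap, and peaks of either strand were counted. Of 11 genes of cell-matrix adhesion, such as integrins and laminins, 2 held a WT peak and 5 a TRE-Msi2 peak, and of 4 gap junction genes 0 held a peak in either list. A gene without a peak may be weakly expressed, so 0 peaks is not evidence that MSI2 does not bind it.

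In the wider list 5 genes had TRE-Msi2 peaks alone and 0 had WT peaks alone. The 5 were Marveld3, a tight junction protein gene (1 peak, score 20), Cdhr2, the partner of Cdhr5 at microvillus tips (3 peaks, top score 25.5), the integrin gene Itga2 (1 peak, 21), Plec, the gene of the cytoskeletal linker plectin (1 peak, 22) and Dst, the gene of dystonin (2 peaks, top score 22). Of the 2 Dst peaks 1 was antisense to the gene. Of these top scores only that of Cdhr2 was above 24.7, the median score of the TRE-Msi2 list. The other 4 genes thus stood in the lower 50% of that list by score, and none of the 5 differences has a replicate check.

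**Figure D4:**
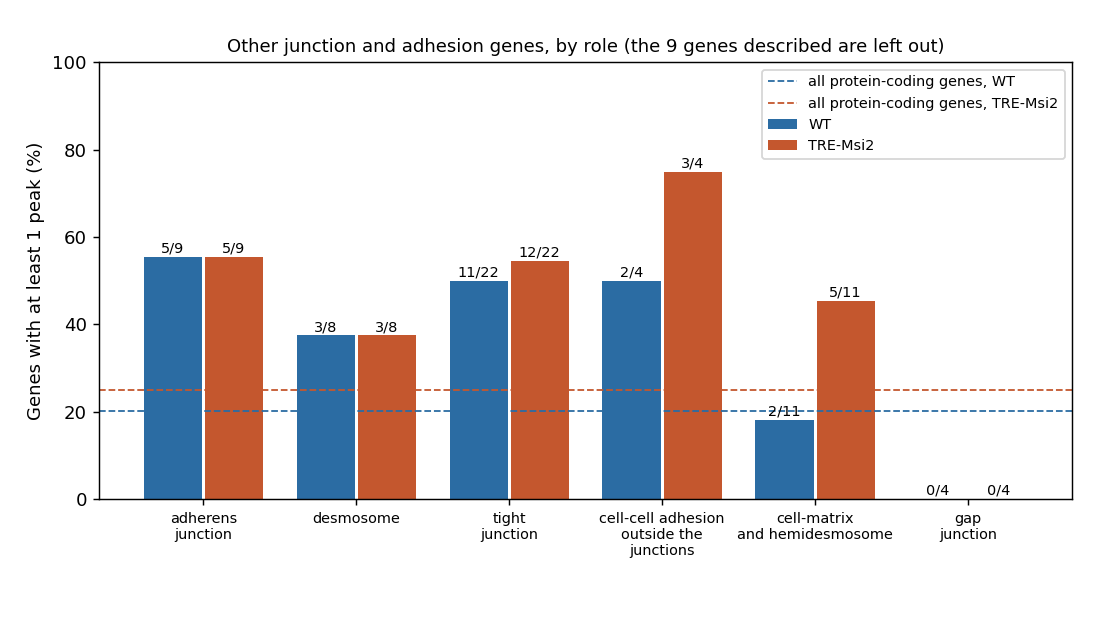
Percentage of genes with at least 1 peak (y axis) among the 57 wider adhesion and junction genes by role (x axis), for the WT and TRE-Msi2 lists; numbers over bars give genes with a peak and genes in the role, dashed lines the share of all protein-coding genes (20.3% and 24.9%). Jup is counted in both the adherens junction and desmosome roles. Peaks of either strand and peaks that touch several gene spans are counted. Adherens junction, desmosome and tight junction genes and those of cell-cell adhesion outside the junctions stand above the dashed lines in both lists. Cell-matrix genes do so in TRE-Msi2 alone (45.5%, against 18.2% in WT), and gap junction genes stand at 0.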

How the data were processed

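The 4 CLIP-seq libraries (2 WT, 2 TRE-Msi2) reached this work as 2 deposited peak lists, in which the authors joined a score and a p-value in a single cell per peak. As the file names read, Piranha was run on reads without duplicates, and the libraries of a genotype were merged. Per the submitters' processing notes, cutadapt and TopHat were used and the builds are mm9 and mm10, with no versions. The deposited p-values were not used: 2566 WT and 4774 TRE-Msi2 peaks have a value above 0.05, and 0 of these are single-bin peaks, so the value of joined peaks is not a caller's threshold.

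Peaks were assigned to gene spans of the RefSeq GRCm38.p6 table (49980 placed genes, the same assembly as mm10) by an overlap of at least 1 base. Gene strand came from the RefSeq promoter table for 6 members and from the peaks for 3. Peaks were counterparts when they shared at least 1 base and the strand. Python 3.11.15, pandas 2.3.3 and scipy 1.17.1 were used, with exact Poisson and Clopper-Pearson 95% intervals. Overlap and ranking were checked on simulated data with known answers. No genome sequence was used, so exons, UTRs and sequences of peaks were not analysed here. None of the 93 peaks met a window of the promoter table, which gave no strand for Cdh1, Cdh17 and Ctnna1. For these 3 genes it does not show that peaks near the start are absent. In TRE-Msi2, 1 Cdh17 peak began 97 nt after the start of the gene.

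The 9 genes, the wider list, the markers and the alternatives were chosen with earlier results of these data known. Named were all 9 genes. From the wider list, the 5 highest top scores in each list and every gene with peaks in 1 list were named. Dsg2, Dsc2, Perp, Ceacam1 and Vcl were named after their values were seen. Jup counts in its 2 roles, and the symbol Pals1 was matched through a synonym.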

Additional observations from a re-analysis of the deposited data

How the results depend on the processing

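Each genotype was deposited as 1 pooled list, so no replicate could be left out. No paired analysis was possible because the lists hold no values of single libraries. The counts and the shares with a counterpart were the same with at least 100 bases of overlap, the strand of the gene only, spans extended by 1 kb and peaks in several spans left out. Keeping only peaks with a score percentile above 50 left 25 WT and 40 TRE-Msi2 peaks, in 8 of the 9 genes each (Tjp1 has none), and 92.0% and 57.5% of them had a counterpart. With as many TRE-Msi2 as WT peaks kept by score, 47 TRE-Msi2 peaks were left in 8 genes, and the shares were 86.1% of WT and 66.0% of TRE-Msi2 peaks. Counterparts sharing at least 50% of the peak made up 97.2% and 57.9%. Median score percentiles within a width class were 78.0 and 73.6. The last 10% of the span held 30.6% and 22.8% of peaks, against 47.4% and 42.8% over all protein-coding genes. The largest change came with single-bin peaks alone, which left 23 WT peaks in 7 genes (Cdh1 and Dsp have none) and 36 TRE-Msi2 peaks in 9. It put the share with a counterpart at 69.6% of WT and 44.4% of TRE-Msi2 peaks. In WT, single-bin peaks at sites joined in TRE-Msi2 lost their partner. In TRE-Msi2, 16 single-bin peaks had a counterpart in either setting. There the share fell because joined peaks, most of which had a counterpart, were left out. Shares of UAG motifs and of exons or UTRs, planned for a genome of this build, were not run.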
